A study of Mus musculus with 2 samples.

Results

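The collagen chain genes were described in cultured Nestin+ mesenchymal stromal cells from mouse heart and bone marrow. All rows named Col, a number, the letter a and a number, with no other suffix, were taken, which gave 44 chain genes of 49492 gene symbols in the tables. Nestin is an intermediate filament protein used here to mark stromal cells, and the cells came from C57BL/6 Nestin-GFP transgenic mice aged 7 days. The heart group was 1 library of heart Nestin+ cells, whose medium held 4 ng/ml of cardiotrophin-1, 20 ng/ml of EGF and 20 ng/ml of bFGF. The bone marrow group was 1 library of bone marrow Nestin+ cells grown in another, earlier published medium. The totals recovered from the values were 64872683 reads for heart and 53999963 for bone marrow. Both cultures were at passage 10, and how many animals fed each culture is not given in the sources used here. Tissue and medium cannot be told apart, and with 1 library per tissue no difference below has a replicate check, a p-value or a standard error.

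Collagens are extracellular matrix proteins in which alpha chains wind into a triple helix, and each chain repeats the pattern glycine, X, Y. Fibrillar collagens pack into the load-bearing fibrils of skin, bone, tendon and the heart wall, and FACIT collagens sit on the surface of those fibrils. Type IV collagen forms the sheet of basement membranes, types XV and XVIII are associated with them, and type VII anchors them to the tissue beneath. Type VI forms beaded filaments around cells, types VIII and X form hexagonal networks, and the transmembrane collagens span the cell surface.

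The repeat can be read in the coding sequence. The stretches below show 54 bases of the longest repeat of 6 chains whose levels differed most between the libraries or that stand for a class, from GENCODE M21 transcripts on GRCm38, read 5′ to 3′ on the coding strand. Capitals mark the glycine codons (GGN).
Col3a1, exon 6, chr1:45325360-45325413, plus strand: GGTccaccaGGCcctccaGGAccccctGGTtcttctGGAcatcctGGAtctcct
Col15a1, exon 13, chr4:47270324-47270377, plus strand: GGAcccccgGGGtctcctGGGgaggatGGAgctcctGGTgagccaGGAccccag
Col10a1, exon 3, chr10:34394928-34394981, plus strand: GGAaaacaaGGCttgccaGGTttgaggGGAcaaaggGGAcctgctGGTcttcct
Col4a1, exon 3, chr8:11247042-11247095, minus strand: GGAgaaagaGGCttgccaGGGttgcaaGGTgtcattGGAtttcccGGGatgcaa
Col12a1, exon 57, chr9:79612916-79612969, minus strand: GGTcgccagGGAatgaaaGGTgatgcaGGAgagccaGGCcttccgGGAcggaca
Col8a2, exon 4, chr4:126311132-126311185, plus strand: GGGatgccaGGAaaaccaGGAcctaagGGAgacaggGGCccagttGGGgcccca
In Col3a1 and Col12a1 the stretch is a whole coding exon of 54 bases, while in Col10a1 and Col8a2 it lies inside exons with 1886 and 1916 coding bases.

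The libraries held collagen transcripts of a different make-up. Summed over the 44 genes, collagen reached 7004 RPKM in heart, against 4592 in bone marrow, where RPKM is reads scaled by gene model length and library size. This was 2.65% of all RPKM in heart, against 1.63% in bone marrow, with a ratio of 1.53 for the sums, or 1.26 without Col3a1. Type I collagen, the main protein of bone and tendon, held 39.0% of the collagen sum in heart and 59.6% in bone marrow. Type III held 19.8% in heart, against 2.82% in bone marrow. The basement membrane class held 24.4% in heart, against 6.33% in bone marrow. FACIT chains held 0.627% in heart and 5.23% in bone marrow. Of these, Col12a1 alone held 0.0667% in heart and 5.01% in bone marrow. Col16a1 and Col14a1 went the other way, with 0.521% and 0.0327% in heart, against 0.198% and 0.00092% in bone marrow. The 5 most abundant chains, which made up 77.1% of the sum in heart, were Col1a1, Col3a1, Col1a2, Col4a1 and Col4a2. In bone marrow the 5 were Col1a1, Col1a2, Col5a2, Col5a1 and Col12a1, with 77.3%.

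**Figure D1:**
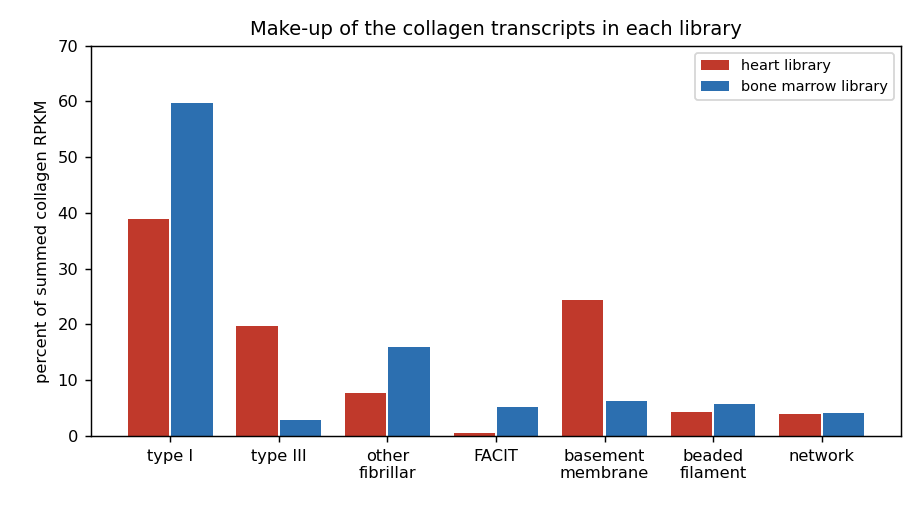
Share of the summed collagen RPKM held by each collagen class in the heart library (red) and the bone marrow library (blue), in percent, with 1 library each and no error. Type I holds 39.0% in heart, against 59.6% in bone marrow, and the basement membrane class 24.4% in heart and 6.33% in bone marrow.

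Of the 44 chains, 27 reached 1 RPKM in at least 1 library, 21 reached 5 RPKM, and 17 stayed below 1 RPKM in both. A gene was called when the log2 ratio of heart over bone marrow, with 1 RPKM added to each side, reached 1 or -1 and either library reached 5 RPKM. Of the 21 chains, 8 were called toward heart (38.1%), 4 toward bone marrow (19%) and 9 were neither. Col2a1, Col8a2, Col10a1, Col12a1 and Col18a1 passed the floor in 1 library only. Among all 7659 genes past the same floor, 7.56% were called toward heart and 9.51% toward bone marrow. At 4-fold, 6 chains were called toward heart and 3 toward bone marrow, beside 3.36% and 2.99% of all genes for the same directions. The median log2 ratio was 0.48 over the 21 chains and -0.15 over the 7659 genes. All genes thus leaned slightly toward bone marrow, and after scaling to the median 8.99% of genes were called toward heart and 7.45% toward bone marrow, with the same 8 and 4 chains. Cells carrying a transcript and the amount of RNA per cell cannot be told apart in these bulk libraries.

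**Figure D2:**
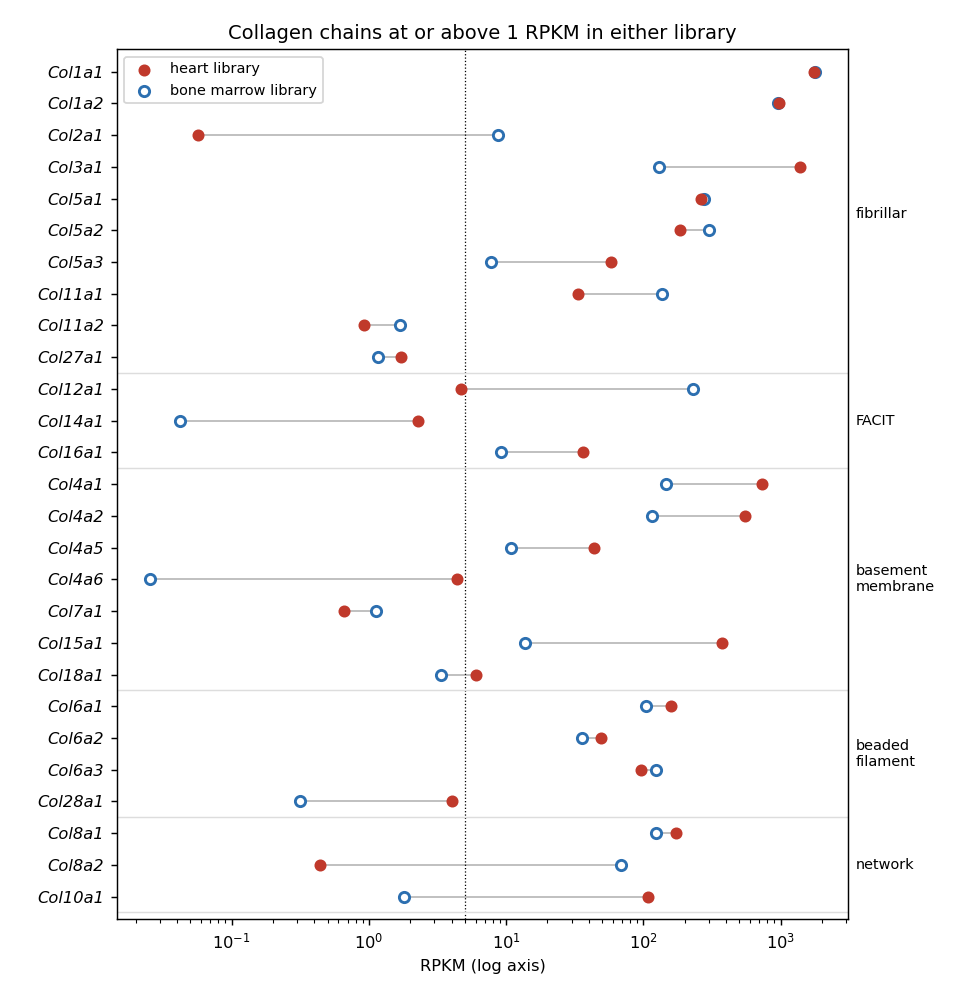
RPKM (log axis) of the 27 collagen chains at or above 1 RPKM in either library, grouped by class, with filled red points for the heart library and open blue points for the bone marrow library. The dotted line marks 5 RPKM. The points of Col1a1 and Col1a2 nearly coincide, while those of Col8a2, Col12a1, Col15a1 and Col10a1 lie far apart.

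The fibrillar chains called between the libraries were of types II, III, V and XI, while type I was nearly equal. Col1a1 and Col1a2, the chains of type I collagen, had 1751 and 978 RPKM in heart, against 1777 and 960 RPKM in bone marrow. Col1a1 ranked number 12 among all genes in either library. Col3a1 encodes the chain of type III collagen, which mixes with type I in the fibrils of stretchable tissues such as vessel walls and the heart. It stood at 1388 RPKM in heart, against 129 in bone marrow, 10.7 times as much in heart. Its 95% interval, from the number of reads alone and without biological error, was 10.6 to 10.8. For each RPKM of Col1a1 there were thus 0.792 of Col3a1 in heart and 0.0728 in bone marrow. The Col3a1 gene lies at chr1:45311538-45349706 on the plus strand and had 883566 reads in heart and 68622 in bone marrow. For 10 chains, among them Col2a1, Col4a1, Col11a1 and Col8a1, the length behind the RPKM had to be solved from the values, so their reads may be understated and their intervals too wide.

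Type V and XI chains start and limit the growth of type I and type II fibrils, and their members went different ways. Col5a1 stood at 264 RPKM in heart, against 278 in bone marrow. Col5a2 stood at 185 RPKM in heart, against 302 in bone marrow, a ratio of 0.614 with an interval of 0.609 to 0.619, which is within 2-fold. Col5a3 (chr9:20770050-20815067, minus strand) reached 58.0 RPKM in heart, against 7.69 in bone marrow, 7.54-fold higher in heart with an interval of 7.25 to 7.84. Heart thus had 0.220 of Col5a3 for each RPKM of Col5a1, against 0.0277 in bone marrow. Col11a1 (chr3:114030540-114220718, plus strand), a type XI chain best known from cartilage, stood at 33.6 RPKM in heart, against 136 in bone marrow, 4.06-fold lower in heart with an interval of 4.00 to 4.13. Of 5 osteoblast markers, 4 passed 5 RPKM, in bone marrow only, and all 4 were called higher there. Of all genes past that floor, 9.51% were called toward bone marrow. The osteoblast list summed to 4.28 RPKM in heart, against 95.2 in bone marrow, with Ibsp listed at 0 in heart. Its relation to the Col11a1 levels was not tested.

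Col2a1 (chr15:97975602-98004695, minus strand) encodes the chain of type II collagen, the main collagen of cartilage. It had 22 reads in heart, or 0.0565 RPKM, and 2821 reads in bone marrow, or 8.71 RPKM. That is 154-fold lower in heart, with an interval of 102 to 246, although the bone marrow level was itself low beside type I. Its helix partner in cartilage, Col11a2, stood at 0.927 RPKM in heart, against 1.68 in bone marrow. Col27a1 stood at 1.71 RPKM in heart, against 1.16 in bone marrow, and Col24a1 at 0.119 and 0.0219 RPKM in the same libraries. The other cartilage genes used as markers were low: Acan, the core protein of aggrecan, was at 0.00619 RPKM in heart, against 0.00744 in bone marrow, while Comp and Matn3, proteins of cartilage matrix, had 0.0571 and 0.0511 RPKM in heart, against 1.67 and 2.13 in bone marrow. Sox9, the transcription factor of cartilage cells, stood at 7.13 RPKM in heart, against 7.12 in bone marrow.

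FACIT chains carry short interrupted helices and large noncollagenous domains. Col12a1 (chr9:79598991-79718831, minus strand), whose protein coats type I fibrils in tendon, ligament and the bone surface, stood at 4.67 RPKM in heart, against 230.0 in bone marrow. It was 49.2-fold lower in heart, with an interval of 47.8 to 50.7, and ranked number 6991 among all genes in heart and 143 in bone marrow. Col14a1, a fibril-associated chain of skin and tendon with as many repeats, went toward heart at a low level, with 1041 reads and 2.29 RPKM in heart and 16 reads and 0.0422 RPKM in bone marrow. Being under 5 RPKM, it was not called, and its ratio of 54.2 has an interval of 33.2 to 95.1. Col16a1 (chr4:130047840-130099283, plus strand), a FACIT of dermal and smooth muscle matrix, stood at 36.5 RPKM in heart, against 9.10 in bone marrow, 4.01-fold higher in heart with an interval of 3.87 to 4.17.

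The remaining FACIT chains were near or at 0. Col20a1 had 65 reads in heart and 206 in bone marrow, or 0.239 and 0.910 RPKM. Col9a3, a type IX chain of cartilage, had 44 reads in heart and 32 in bone marrow. Its partners Col9a1 and Col9a2 had 0 reads in heart and 3 and 2 reads in bone marrow, and Col19a1 and Col22a1 each had 3 reads in heart and 0 in bone marrow. A count of 0 allows up to 3 reads, so no difference of these 4 chains was detectable at this depth.

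Every basement membrane chain at or above 5 RPKM except Col18a1 was called higher in heart: 4 of 5, with none higher in bone marrow. Over all genes past that floor the shares were 7.56% and 9.51%. Col4a1 and Col4a2 encode the chains of the common type IV trimer found in nearly all basement membranes. Col4a1 (chr8:11198423-11312826, minus strand) stood at 734 RPKM in heart, against 146 in bone marrow, 5.04-fold higher in heart with an interval of 5.00 to 5.09. Col4a2 (chr8:11312805-11449287, plus strand) stood at 546 RPKM in heart, against 116 in bone marrow, 4.72-fold higher with an interval of 4.67 to 4.77. Their ratio to each other was close in the libraries, 1.34 in heart and 1.26 in bone marrow. These genes lie head to head, and their annotated first exons share 22 bases on opposite strands.

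The chains of the other head-to-head type IV genes on chromosome X, which have 1308 bases between them, also went toward heart together. Col4a5 (chrX:141475385-141689234, plus strand) stood at 43.9 RPKM in heart, against 10.9 in bone marrow, 4.04-fold higher with an interval of 3.91 to 4.18. Col4a6 (chrX:141165403-141474076, minus strand) had 2255 reads in heart and 11 in bone marrow, or 4.36 and 0.0255 RPKM. Its ratio of 171 has an interval of 95.2 to 342, and its level kept it under the floor for a call. Col4a5 exceeded Col4a6 by 10.1 times in heart and 425 times in bone marrow, so their balance was not as even as that of Col4a1 and Col4a2. Col4a3 and Col4a4, the type IV chains of the kidney filter, lie head to head with 71 bases between them and were below 0.1 RPKM in both libraries, with 37 and 39 reads in heart and 27 and 18 in bone marrow.

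The basement membrane zone collagens XV and XVIII, whose ends can be released as antiangiogenic fragments, differed in how far they moved. Col15a1 (chr4:47208161-47313167, plus strand) stood at 374 RPKM in heart, against 13.7 in bone marrow, 27.2-fold higher in heart with an interval of 26.5 to 28. It ranked number 79 among all genes in heart and 3471 in bone marrow. Col18a1 stood at 6.03 RPKM in heart, against 3.34 in bone marrow, a ratio of 1.81 with an interval of 1.69 to 1.93, within 2-fold on the scale used. Col7a1, the anchoring fibril chain of skin, was at 0.664 RPKM in heart, against 1.13 in bone marrow. Endothelial cells also make type IV collagen, and their markers Pecam1, Cdh5, Tek, Kdr and Vwf summed to 0.272 RPKM in heart, against 1.36 in bone marrow. Most of the bone marrow sum was Vwf, at 1.13 RPKM. None of these markers exceeded 0.177 RPKM in heart. The part of endothelial cells in the type IV levels was not tested.

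**Figure D3:**
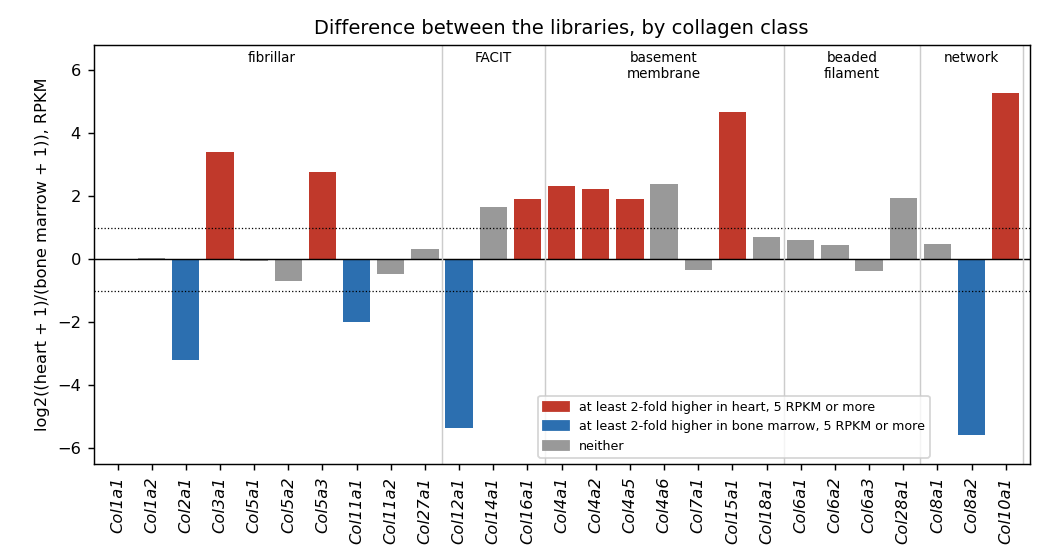
Log2 ratio of heart over bone marrow RPKM, with 1 RPKM added to each, for the 27 collagen chains at or above 1 RPKM in either library, grouped by class. Red bars are the 8 chains called higher in heart, blue bars the 4 called higher in bone marrow and grey bars those called neither, among them chains past 2-fold but under 5 RPKM, and dotted lines mark 2-fold.

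None of the 3 beaded filament chains past 5 RPKM was called, beside 17.1% of all genes past that floor. Type VI collagen is a trimer of its chains around cells in muscle and connective tissue. Col6a1 stood at 159 RPKM in heart, against 104 in bone marrow, a ratio of 1.52. Col6a2 stood at 49.3 RPKM in heart, against 35.8 in bone marrow, a ratio of 1.38. Col6a3, the long chain of the trimer, leaned the other way at 95.5 RPKM in heart, against 124 in bone marrow, a ratio of 0.768. All 3 lay within 2-fold. Col6a3 reached 0.602 of the Col6a1 level in heart and 1.19 of it in bone marrow. Col6a4, Col6a5 and Col6a6, which can replace Col6a3 in some tissues, had 5 to 26 reads in heart and 2 to 6 in bone marrow. Col28a1, a related chain known from peripheral nerve, had 1291 reads and 4.06 RPKM in heart and 84 reads and 0.317 RPKM in bone marrow, a ratio of 12.8 under the floor for a call. Col26a1 had 1 read in heart and 3 in bone marrow.

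The network chains share a short helix and a globular end related to C1q. They gave the largest log2 ratio (with 1 RPKM added) among the 44 chains in each direction, 5.27 for Col10a1 and -5.58 for Col8a2. Col10a1 (chr10:34389981-34397085, plus strand) encodes the chain of type X collagen, the collagen of hypertrophic cartilage. It stood at 108 RPKM in heart, against 1.82 in bone marrow, 59.4-fold higher in heart with an interval of 53.1 to 66.7, from 21922 and 307 reads. Col8a2 (chr4:126286793-126314330, plus strand), a type VIII chain known from the corneal endothelium, stood at 0.443 RPKM in heart, against 68.2 in bone marrow. It was 154-fold lower in heart, with an interval of 129 to 184, from 129 reads in heart and 16525 in bone marrow. Col8a1, the other type VIII chain and one of vessel walls, was abundant in both, at 173 RPKM in heart, against 123 in bone marrow, a ratio of 1.40. Col8a1 therefore exceeded Col8a2 by 390 times in heart and 1.81 times in bone marrow.

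Col10a1 lies within the span of Nt5dc1, which runs on the opposite strand and shares 18 exon bases with it. Nt5dc1 stood at 3.51 RPKM in heart, against 5.58 in bone marrow, and thus leaned the other way. Runx2, the transcription factor known to act on Col10a1 in cartilage, stood at 4.16 RPKM in heart, against 9.46 in bone marrow. Mef2c, another factor of cartilage hypertrophy, stood at 7.51 RPKM in heart, against 1.66 in bone marrow. The part of either factor in the Col10a1 levels was not tested.

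All 4 transmembrane chains stayed below 1 RPKM in both libraries. Col25a1, a membrane collagen of neurons, was the highest in heart, with 455 reads and 0.684 RPKM in heart and 21 reads and 0.0379 RPKM in bone marrow. Col23a1 had 38 reads in heart and 15 in bone marrow, Col17a1, the hemidesmosome collagen of skin, had 10 and 17, and Col13a1, which occurs at muscle synapses, had 3 in each library.

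**Figure D4:**
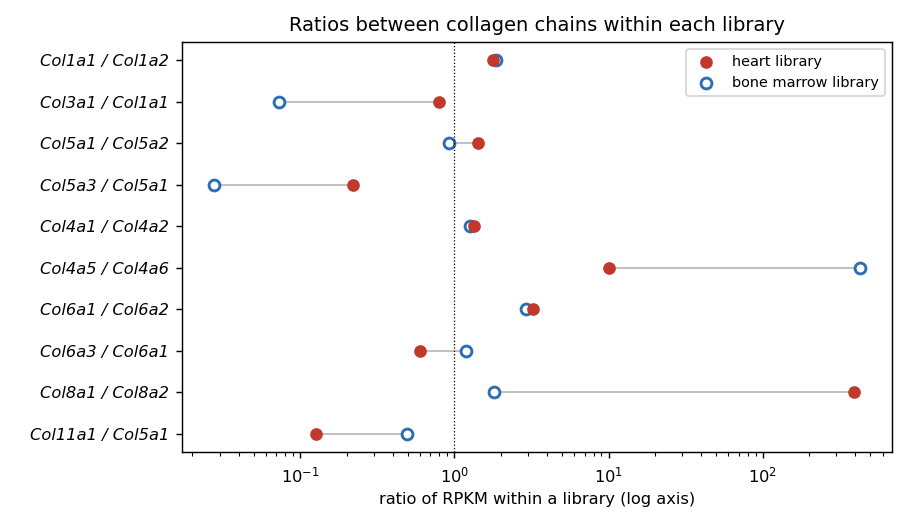
Ratio of the RPKM of collagen chains to each other within the heart library (filled red points) and the bone marrow library (open blue points), on a log axis with a dotted line at equal levels. Col1a1 to Col1a2, Col4a1 to Col4a2 and Col6a1 to Col6a2 lie close together in the libraries, while Col8a1 to Col8a2 is 390 in heart and 1.81 in bone marrow.

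Col1a1 to Col1a2, Col4a1 to Col4a2 and Col6a1 to Col6a2 had close ratios in the libraries, while Col4a5 to Col4a6, Col6a3 to Col6a1 and Col8a1 to Col8a2, given above, did not. Col5a1 to Col5a2 also differed, at 1.43 in heart and 0.920 in bone marrow. Col1a1 to Col1a2 was 1.79 in heart and 1.85 in bone marrow, and Col6a1 to Col6a2 was 3.21 in heart and 2.92 in bone marrow. These within-library values depend on the length given to each gene. All reads of a gene, those on noncoding exon bases included, were also scaled by coding length in place of the gene model. A chain with much noncoding exon sequence can be raised by this. Col1a1 to Col1a2 then became 0.914 in heart and 0.945 in bone marrow, and Col6a1 to Col6a2 became 1.71 in heart and 1.55 in bone marrow. Col3a1 to Col1a1 became 1.18 in heart and 0.108 in bone marrow, so which of these chains leads in heart depends on the length used. The comparison of a ratio between the libraries does not use the length.

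Repeat length was nearly constant among the fibrillar and network chains past 5 RPKM, called or not. It therefore could not set the directions of call apart in these classes, and no conclusion is drawn from it. The longest unbroken run of codon triplets that start with a glycine codon had a median of 338 triplets in the 11 fibrillar chains, with a range of 216 to 344, and runs of 5 or more numbered 2 to 3 per chain. In the 9 basement membrane chains the longest run was 30 to 75 triplets, and 10 to 24 runs were found per chain. The 3 network chains had 60 or 61 triplets. Within the fibrillar class, the heart-called Col3a1 and Col5a3 had 344 and 337 triplets and the bone-marrow-called Col2a1 and Col11a1 had 339 and 338. The uncalled Col1a1, Col1a2, Col5a1 and Col5a2 had 338 or 339. Col10a1 and Col8a2, opposite in direction, had 61 and 60. Col12a1 and Col14a1, which also went opposite ways, each had a longest run of 32 triplets and 78 triplets in all, but Col14a1 was not called. The called FACIT chains Col12a1 and Col16a1 went opposite ways too and differed in their repeats. Col16a1 had a longest run of 52 triplets and 303 triplets in all. Exons of exactly 54 coding bases numbered 21 to 33 in fibrillar chains, 1 to 6 in basement membrane chains and 0 in network chains.

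**Figure D5:**
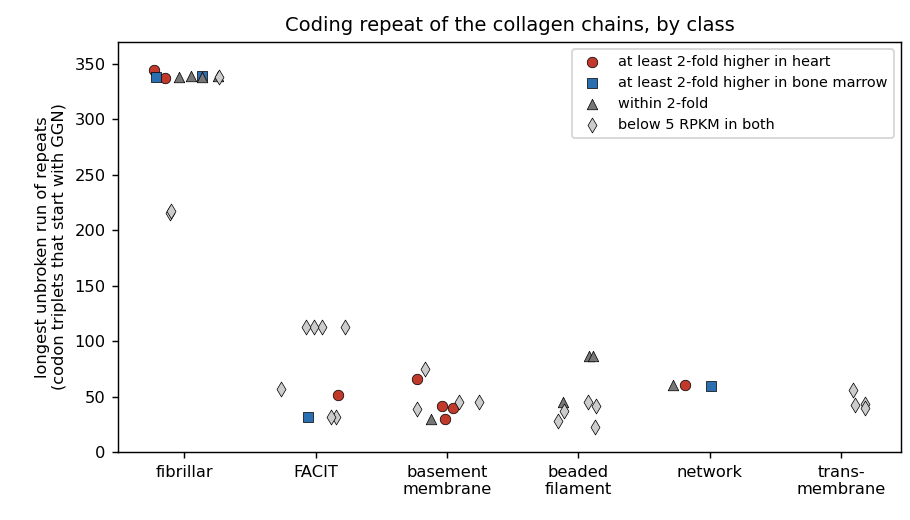
Longest unbroken run of glycine-led codon triplets in the coding sequence of each of the 44 collagen chains, by class, with symbols for the call of each chain between the libraries. The 4 called fibrillar chains lie at 337 to 344 triplets, as do the uncalled fibrillar chains past 5 RPKM, and chains of the other classes lie at or below 113.

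Start regions were read for the 35 chains with an entry in the RefSeq promoter table (GRCm38.p6), as the 250 bases before each annotated start, 38 windows in all. The letters TATAAA, searched on both strands, occurred in 5 of the 38 windows (13.2%) and in 12.4% of all 32851 windows of the table. The GC box letters GGGCGG occurred in 22 (57.9%) and in 32.7% of all windows. Searched in the same way, CCAAT occurred in 34.2% of the collagen windows and 33.8% of all, the RUNX letters TGTGGT in 7.89% and 14%, and the AP-1 letters TGAGTCA in 2.63% and 4.46%. None of these motifs contains another. Of the 8 chains called higher in heart, 2 had TATAAA, Col3a1 and Col10a1. The other 3 chains with it, Col11a2, Col13a1 and Col17a1, were among 18 chains with a window that stayed below 5 RPKM in both libraries. Of the chains called higher in bone marrow, only Col8a2 and Col11a1 had a window, without TATAAA. Any relation of TATAAA to the calls was not tested. The windows of Col3a1 and Col10a1 are shown with that match in capitals, read 5′ to 3′ on the coding strand.
Col3a1, chr1:45311288-45311537, plus strand: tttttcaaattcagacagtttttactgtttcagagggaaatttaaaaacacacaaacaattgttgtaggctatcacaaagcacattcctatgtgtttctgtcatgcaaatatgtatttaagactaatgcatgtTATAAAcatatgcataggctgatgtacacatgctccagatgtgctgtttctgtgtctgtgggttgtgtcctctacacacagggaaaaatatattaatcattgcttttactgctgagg
Col10a1, chr10:34389731-34389980, plus strand: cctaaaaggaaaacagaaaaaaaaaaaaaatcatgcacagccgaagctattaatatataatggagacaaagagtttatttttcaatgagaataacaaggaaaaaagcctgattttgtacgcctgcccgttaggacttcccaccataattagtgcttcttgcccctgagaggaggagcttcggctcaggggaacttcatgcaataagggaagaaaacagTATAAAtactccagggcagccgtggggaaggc
Their GC content was 35.2% and 41.6%, against a median of 52.4% over all windows, while the windows of Col4a1 and Col4a2 had 74.4% and 73.6% and no TATAAA. A match is a description of the letters and not a site of binding.

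Of 20 genes of collagen folding and modification, 18 reached 5 RPKM, 1 was higher in heart, 2 were higher in bone marrow and 15 were neither, with a median log2 ratio of 0.28. Of all 7659 genes past that floor, 17.1% were called in either direction, a share near that of the list. Serpinh1, the collagen chaperone HSP47, stood at 707 RPKM in heart, against 589 in bone marrow. P4ha3, a prolyl hydroxylase subunit, stood at 1.23 RPKM in heart, against 16.6 in bone marrow, and P4ha2, a related subunit, at 8.50 and 18.2 RPKM. The gene higher in heart was Tmem38b, which encodes an ion channel of the endoplasmic reticulum, at 12.3 RPKM in heart, against 4.84 in bone marrow.

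Of 13 genes of procollagen processing and crosslinking, 8 reached 5 RPKM, 2 were higher in heart, 3 were higher in bone marrow and 3 were neither. For this list and the 2 below, the shares over all 7659 genes past that floor were 7.56% toward heart and 9.51% toward bone marrow. Lox, the lysyl oxidase that starts crosslinking, stood at 156 RPKM in heart, against 1288 in bone marrow, and its relatives Loxl1 and Loxl3 had log2 ratios of 1.17 and -1.07. Adamts2, which trims the amino end of procollagen, had 1.05, and Pcolce2, an enhancer of trimming at the other end, had -2.59. Of 10 collagen receptor genes, 6 reached 5 RPKM, with Mrc2, an endocytic collagen receptor, higher in heart (143 RPKM in heart, against 40.7 in bone marrow) and Itga11, an integrin subunit that binds type I collagen, higher in bone marrow (6.43 RPKM in heart, against 156 in bone marrow). Of 9 transcription factors known to act on collagen genes, 6 reached 5 RPKM, 1 was higher in heart (Mef2c, above) and 4 were higher in bone marrow. Those 4 were Runx2 (above), Creb3l1, with a log2 ratio of -1.18, the osteoblast factor gene Sp7 (0.0106 RPKM in heart, against 41.6 in bone marrow) and the tendon factor gene Scx (0.529 RPKM in heart, against 23.7 in bone marrow). Among the called genes of these lists, Mef2c passed 5 RPKM in heart only. Pcolce2, Runx2, Sp7 and Scx passed it in bone marrow only.

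Some markers of lineages also differed between the libraries, though not all markers of a lineage went the same way. Of all genes past 5 RPKM, 7.56% were called toward heart and 9.51% toward bone marrow. The stromal marker Pdgfrb stood at 139 RPKM in heart, against 133 in bone marrow, while Thy1 and Eng had 16.7 and 33.9 RPKM in heart, against 0.0603 and 0.576 in bone marrow, so that these defining antigens were near 0 in the bone marrow library. Of the 7 stromal markers, 5 were called higher in heart, Pdgfra, Dcn and Lum among them with log2 ratios of 1.19, 4.36 and 4.56. Of these 5, Thy1, Eng and Lum passed 5 RPKM in heart only. Nt5e was at 0.225 RPKM in heart, against 1.59 in bone marrow. Of 5 osteoblast markers, 4 were called higher in bone marrow, among them Sp7 and Runx2. These 4 passed 5 RPKM in bone marrow only. Alpl stood at 0.00764 RPKM in heart, against 26.8 in bone marrow, and Bglap at 0.0998 and 4.46 RPKM. Of 4 smooth muscle markers, Acta2 and Tagln were called higher in bone marrow, with 40.1 and 28.5 RPKM in heart and 889 and 205 in bone marrow, and Cnn1 stood at 0.0113 RPKM in heart, against 4.18 in bone marrow. The remaining marker, Myh11, was near 0 in both libraries, at 0.0279 RPKM in heart, against 0.0782 in bone marrow. Cardiomyocyte markers summed to 0.423 RPKM in heart, against 0.627 in bone marrow, and epithelial markers to 0.118 and 0.897 RPKM. Among haematopoietic markers Ptprc was at 0 RPKM in heart, against 0.00469 in bone marrow, with Cd53 at 4.80 RPKM in heart, against 1.03 in bone marrow and Cd14 at 2.97 and 2.79. The part of any of these lineages in the collagen differences was not tested.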

How the data were processed

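RNA of 2 cultures, 1 heart and 1 bone marrow, was sequenced as 1 Illumina library each from 1 ug of total RNA, per the labels' protocols. The deposited values are RPKM per gene, per the file headers, in 49585 rows. Aligner, counter and strand use: not given in the sources used here. Per the submitters' processing notes the build was mm8, whereas 45149 rows (91.1%) match GENCODE M21 models on GRCm38, on which coordinates are given.

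Whole reads were recovered from RPKM and exon-union lengths, giving totals of 64872683 for heart and 53999963 for bone marrow. Values were whole within 0.02 reads in both libraries for 86.2% of 14255 genes. For 10 chains the model length differed, and the shortest length giving whole reads was used. On 30 chains of known length it gave that length for 22 and a fraction of it for the others, so reads of those 10 may be understated and their intervals wide. Counting intervals (95%, exact Clopper-Pearson) cover counting error only, since PCR copies cannot be told from separate molecules, and no count model was fitted. Rows sharing a symbol were represented by the one with the highest mean, and an exact 0 is given with its reads.

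All 44 members are named; of each gene list the called genes, and markers at or above 1 RPKM. Serpinh1, genes overlapping a chain and markers near 0 were added after their values were seen. A further marker list is not reported here. Members and lists were chosen with earlier results of these data known. In simulated data of 18456 genes both totals were recovered, and 94.4% of intervals held the true ratio. All genes simulated as changed 3-fold or more were called. Such changes lie beyond the 2-fold rule, so this says little about genes near the threshold. The simulation checked the computation only. It cannot show how calls or intervals behave between real cultures with 1 library per tissue. Tools were scipy 1.17.1, pandas 2.3.3, numpy 2.4.6 and, for figures, matplotlib 3.10.9, under Python 3.11.15. Alternatives were pseudocounts, floors, a 4-fold threshold, scalings, summed rows and coding length.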

Additional observations from a re-analysis of the deposited data

How the results depend on the processing

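No paired analysis was possible because each tissue has 1 library, and for the same reason no replicate could be left out. The counts of 8 chains toward heart and 4 toward bone marrow stayed within 1.5 times under all alternatives: 6 to 11 toward heart and 3 to 4 toward bone marrow. With a floor of 1 RPKM or none, Col4a6, Col14a1 and Col28a1 joined the heart calls; at 20 RPKM Col2a1 left the bone marrow calls; at 4-fold Col4a5, Col16a1 and Col11a1 were no longer called. Counts over all genes moved more: toward heart, 579 became 383 with a pseudocount of 5, 883 with a floor of 1 RPKM or none, 263 with a floor of 20 and 257 at 4-fold. Toward bone marrow, 728 became 424 with a pseudocount of 5, 315 with a floor of 20 and 229 at 4-fold. Scaling to the median, upper quartile, trimmed mean or RPKM sum raised heart values by 0.07 to 0.16 on the log2 scale. With 1 RPKM added, log2 ratios of chains low in heart moved less, as for Col2a1, from -3.199 to -3.191 under scaling to the median. The median over chains, 0.48, became 0.63, 0.57, 0.56 and 0.64 under those 4 scalings, 0.41 with a pseudocount of 5 and 0.031 with no floor, where the 23 chains below 5 RPKM enter. The log2 ratio of the summed collagen RPKM, 0.61, became 0.76, 0.70, 0.68 and 0.77 under the 4 scalings. The sign for Col1a1 and Col5a1, close to even, depends on the scaling. No called chain changed sign, but none could have. A pseudocount cannot turn a sign, and the scalings added at most 0.16 to log2 ratios. Per coding length, with reads on noncoding exon bases kept, Col1a1 to Col1a2 was 0.914 in heart and 0.945 in bone marrow, Col4a1 to Col4a2 1.44 and 1.35, Col6a1 to Col6a2 1.71 and 1.55, and Col8a1 to Col8a2 417 and 1.93. Added after seeing the data, reads per codon, with the same reads kept, gave the basement membrane class 18.2% of collagen in heart and 4.49% in bone marrow, and a ratio of 1.79 for the sums. Depth limits the chains with few reads in both libraries, whose intervals are wide.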

Other observations

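Neighbouring collagen genes did not always go the same way. Col3a1 and Col5a2 lie tail to tail on chromosome 1 with 24614 bases between them, and their log2 ratios were 3.41 and -0.70. The tail-to-tail genes Col9a1 and Col19a1, 9205 bases apart, had at most 3 reads in either library. Col6a2 and Col6a1, which lie 85161 bases apart on the same strand of chromosome 10, had log2 ratios of 0.45 and 0.60.

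Col9a3 shares 234 exon bases with Tcfl5 on the opposite strand. Tcfl5 stood at 2.27 RPKM in heart, against 0.0175 in bone marrow, and Col9a3 had 44 reads in heart and 32 in bone marrow. Without known strand use, those of its reads in heart that lie in the shared bases cannot be told apart from reads of Tcfl5, while in bone marrow Tcfl5 was near 0. Col4a3 shares 563 exon bases with the noncoding gene C430014B12Rik, at 0.534 RPKM in heart, against 0.335 in bone marrow, and the same limit holds for reads in those bases among its 37 reads in heart and 27 in bone marrow.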
